A study of Homo sapiens with 9 samples.

Results

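The nuclear-encoded subunits of oxidative phosphorylation were followed in SNU5, an established human gastric carcinoma cell line. Members were the protein-coding genes whose symbols begin with NDUFA, NDUFB, NDUFC, NDUFS or NDUFV (the NDUFAF assembly factors left out), SDHA to SDHD, UQCR, UQCRFS1, CYC1, COX4I, COX5, COX6, COX7, COX8, ATP5F1, ATP5M, ATP5P and ATP5IF1. This gave 91 genes of the 60880 gene IDs in each library. The rule used gene symbols and no expression value, though it was set with earlier results of these data known. Complex I held 37 of them, complex II 4, complex III 10, complex IV 19 and complex V 19, and 2 were read-through genes placed in no complex (NDUFC2-KCTD14 and ATP5MF-PTCD1).

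Cells were treated for 24 h with ramucirumab, an antibody against VEGFR2, in 3 forms that all carried 8 μg/mL of antibody. The antibody was given alone (Ab), linked through polyethylene glycol to gold nanorods (AuNR-PEG-Ab, called NR) or linked in the same way to gold nanospheres (AuSP-PEG-Ab, called SP), with 3 libraries per group. Poly-A RNA was sequenced and reads were counted per gene. The NR libraries held 25735410, 13863155 and 15943980 counts, the SP libraries 21682836, 22914759 and 20601906, and the Ab libraries 19566064, 26318227 and 21031024. Untreated cells and particles without antibody were not analysed here, so the effects of gold, linker and bound antibody cannot be told apart in a difference from Ab. The study's reporting summary states that its in vitro work was repeated independently, and the paper calls the replicates of its omics data biological. The labels do not say whether the libraries of a group came from separate cultures. The p-values therefore measure the spread between these libraries, part of which may be technical.

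Oxidative phosphorylation makes most of the ATP of a respiring cell. Complex I (NADH dehydrogenase) and complex II (succinate dehydrogenase) pass electrons to ubiquinone, complex III (cytochrome bc1) passes them on to cytochrome c, and complex IV (cytochrome c oxidase) hands them to oxygen. Complexes I, III and IV pump protons as they do so, and complex V (ATP synthase) lets the protons back through a rotating ring to make ATP. Complex II is built from nuclear genes alone, whereas the other complexes combine nuclear subunits with a few encoded in the mitochondrial genome. The genes of the nuclear subunits are scattered over the chromosomes, and the factors NRF1 and GABP (of the ETS family), with YY1 and SP1, are known to act at many of their promoters.

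Of the cell type markers examined, KRT8, an epithelial keratin, stood at 667, 632 and 645 CPM (counts scaled to a common library size, with the size of each library adjusted by TMM over all 9 libraries) in the Ab libraries and at 1870 to 2030 CPM in the NR and SP libraries. CDH1, which encodes E-cadherin, was between 0.189 and 0.43 CPM in Ab and between 5.5 and 7.26 CPM in the particle groups. EPCAM, an epithelial adhesion molecule, was between 1.49 and 1.67 CPM in Ab and between 3.94 and 6.19 CPM in the particle groups. The tight-junction gene CLDN4 was between 41.6 and 52.2 CPM and the receptor kinase MET between 235 and 262 CPM over all 9 libraries, and KRT19, another epithelial keratin, had at most 1 count in each. KDR, which encodes VEGFR2, had 1 count in a single NR library and 0 in the other 8 libraries. Keratin KRT8 was thus abundant in all 9 libraries, while the epithelial markers EPCAM and CDH1 were low, CDH1 under 1 CPM in Ab, and KRT19 was at or near 0.

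The particle groups also stood apart from Ab in markers of other cell types. The 6 fibroblast markers summed to 45.4, 42.1 and 17.8 CPM in Ab, to 113, 108 and 105 CPM in NR and to 112, 119 and 119 CPM in SP, with COL1A1 the most abundant (14 to 42 CPM). LUM was at 0.922, 0.905 and 0.956 CPM in Ab and at 36.9 to 39.1 CPM in NR and SP, and DCN and PDGFRB were likewise under 1 CPM in Ab and above 10 CPM in NR and SP. The others did not share this pattern, with COL1A2 at 10.1, 10.5 and 1.58 CPM in Ab and at 0 to 2.25 CPM in NR and SP, and COL3A1 at 3.69, 2.75 and 0.526 CPM in Ab and at 1.62 to 3.07 CPM in NR and SP. The 4 endothelial markers found in the annotation summed to between 20.8 and 24.3 CPM in the particle groups and to between 3.53 and 5.07 CPM in Ab, nearly all from CDH5, with 2 of them (KDR and TEK) at or under 3 counts in each library. Of the leukocyte markers, PTPRC, CD3E, CD68 and LYZ were at or under 3 counts in each library, and CD14 was between 0.0436 and 1.08 CPM. The part of these differences in the results against Ab was not tested. In bulk RNA, a change in RNA per cell and a change in the mix of cells cannot be told apart.

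The member with the largest mean rise of NR and SP against Ab in each complex is shown first by the DNA just upstream of its start, because the rest of the results turn on how such genes moved together. Tissue isoforms were left out, as were genes absent from the RefSeq promoter table used here. The 150 bases before the RefSeq start (build GRCh38.p14, 5′ to 3′ on the strand of the gene) are in lower case, with matches on either strand to any of the 5 motifs named after them in capitals.
NDUFB6, chr9:32573160-32573309, minus strand: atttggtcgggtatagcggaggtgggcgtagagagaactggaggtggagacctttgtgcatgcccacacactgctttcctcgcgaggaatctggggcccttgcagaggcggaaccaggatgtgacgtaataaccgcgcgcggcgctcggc
SDHA, chr5:218170-218319, plus strand: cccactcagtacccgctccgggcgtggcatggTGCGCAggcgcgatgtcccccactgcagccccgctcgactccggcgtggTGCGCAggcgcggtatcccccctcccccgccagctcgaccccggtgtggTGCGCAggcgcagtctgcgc
UQCR10, chr22:29767219-29767368, plus strand: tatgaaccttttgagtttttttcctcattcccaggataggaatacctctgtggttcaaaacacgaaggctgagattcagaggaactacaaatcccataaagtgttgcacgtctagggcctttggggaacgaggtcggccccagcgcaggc
COX6B1, chr19:35648173-35648322, plus strand: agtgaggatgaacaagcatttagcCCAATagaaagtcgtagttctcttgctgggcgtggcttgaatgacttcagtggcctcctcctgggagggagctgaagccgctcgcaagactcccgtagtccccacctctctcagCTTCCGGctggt
ATP5MC1, chr17:48892637-48892786, plus strand: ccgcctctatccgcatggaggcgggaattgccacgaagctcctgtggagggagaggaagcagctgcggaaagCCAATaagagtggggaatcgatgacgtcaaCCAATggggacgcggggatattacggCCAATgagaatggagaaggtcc

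In these stretches SDHA held the NRF1 core TGCGCA at 3 places, COX6B1 held CCAAT (the NF-Y box) and an ETS/GABP match read on the other strand, and ATP5MC1 held CCAAT at 3 places. NDUFB6 and UQCR10 held none of the 5 motifs in the 150 bases, which says nothing about the factors themselves. In the 250 bases before the start, TGCGCA occurred in 22.9% of 83 promoters of 70 member genes and in 6.89% of all 35116 promoters of the table. The ETS/GABP motif CCGGAAG occurred in 22.9% against 8.52%, the YY1 motif AAGATGG in 7.23% against 3.7%, the SP1 motif GGGCGG in 57.8% against 42.6% and CCAAT in 33.7% against 32%. All were counted on both strands. None of the 5 motifs contains another, though CCGGAAG and AAGATGG can share the bases AAG, and a match is a string of letters, not a shown binding site. Promoters of the other 19 subunit genes were not used here.

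The first comparison asked how respiratory subunits stood after rod-borne antibody beside the free antibody. Summed over the 91 members, NR libraries held 11900, 11400 and 11300 CPM and Ab libraries 7310, 6990 and 7170 CPM, so the groups did not overlap and the ratio of means was 1.61. Of the 80 members with enough counts to test, 67 rose in NR and 6 fell at an adjusted p of at most 0.05 (edgeR quasi-likelihood test, Benjamini-Hochberg adjustment over all 15009 genes tested). That is 83.8% of the members up, beside 36.4% of all genes tested, and 7.5% down, also beside 36.4%. The median log2 fold change of the members was 0.77 (1.71-fold), beside −0.0055 for all genes tested. With a minimum of 2-fold added, 24 members rose and 4 fell, where 12.4% of all genes rose and 10.3% fell by this rule.

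Sphere-borne antibody gave summed levels of 11200, 11000 and 11400 CPM, a ratio of 1.57 to the same Ab libraries. Here 65 of 80 tested members rose and 7 fell by the same test over 15068 genes, which is 81.2% and 8.75% of the members beside 36.4% and 36.6% of all genes. The median log2 fold change was 0.65 (1.57-fold), beside −0.0067 for all genes, and 19 members rose and 4 fell by at least 2-fold, beside 12.6% and 10.6% of all genes. Both comparisons share the Ab libraries, so their values are given side by side and are not independent of each other. The members that rose in both numbered 65, and 6 fell in both. NDUFA6 and COX6A1 rose in NR alone, NDUFC2 fell in SP alone, and NDUFA9, NDUFS1, NDUFS3, NDUFS4, NDUFS7 and COX7A2L passed in neither; whether those 3 genes differed between NR and SP is given by the direct comparison below, where none passed. The call of COX6A1 in SP was gained without SP replicate 1 (adjusted p = 0.0322, edgeR).

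**Figure D1:**
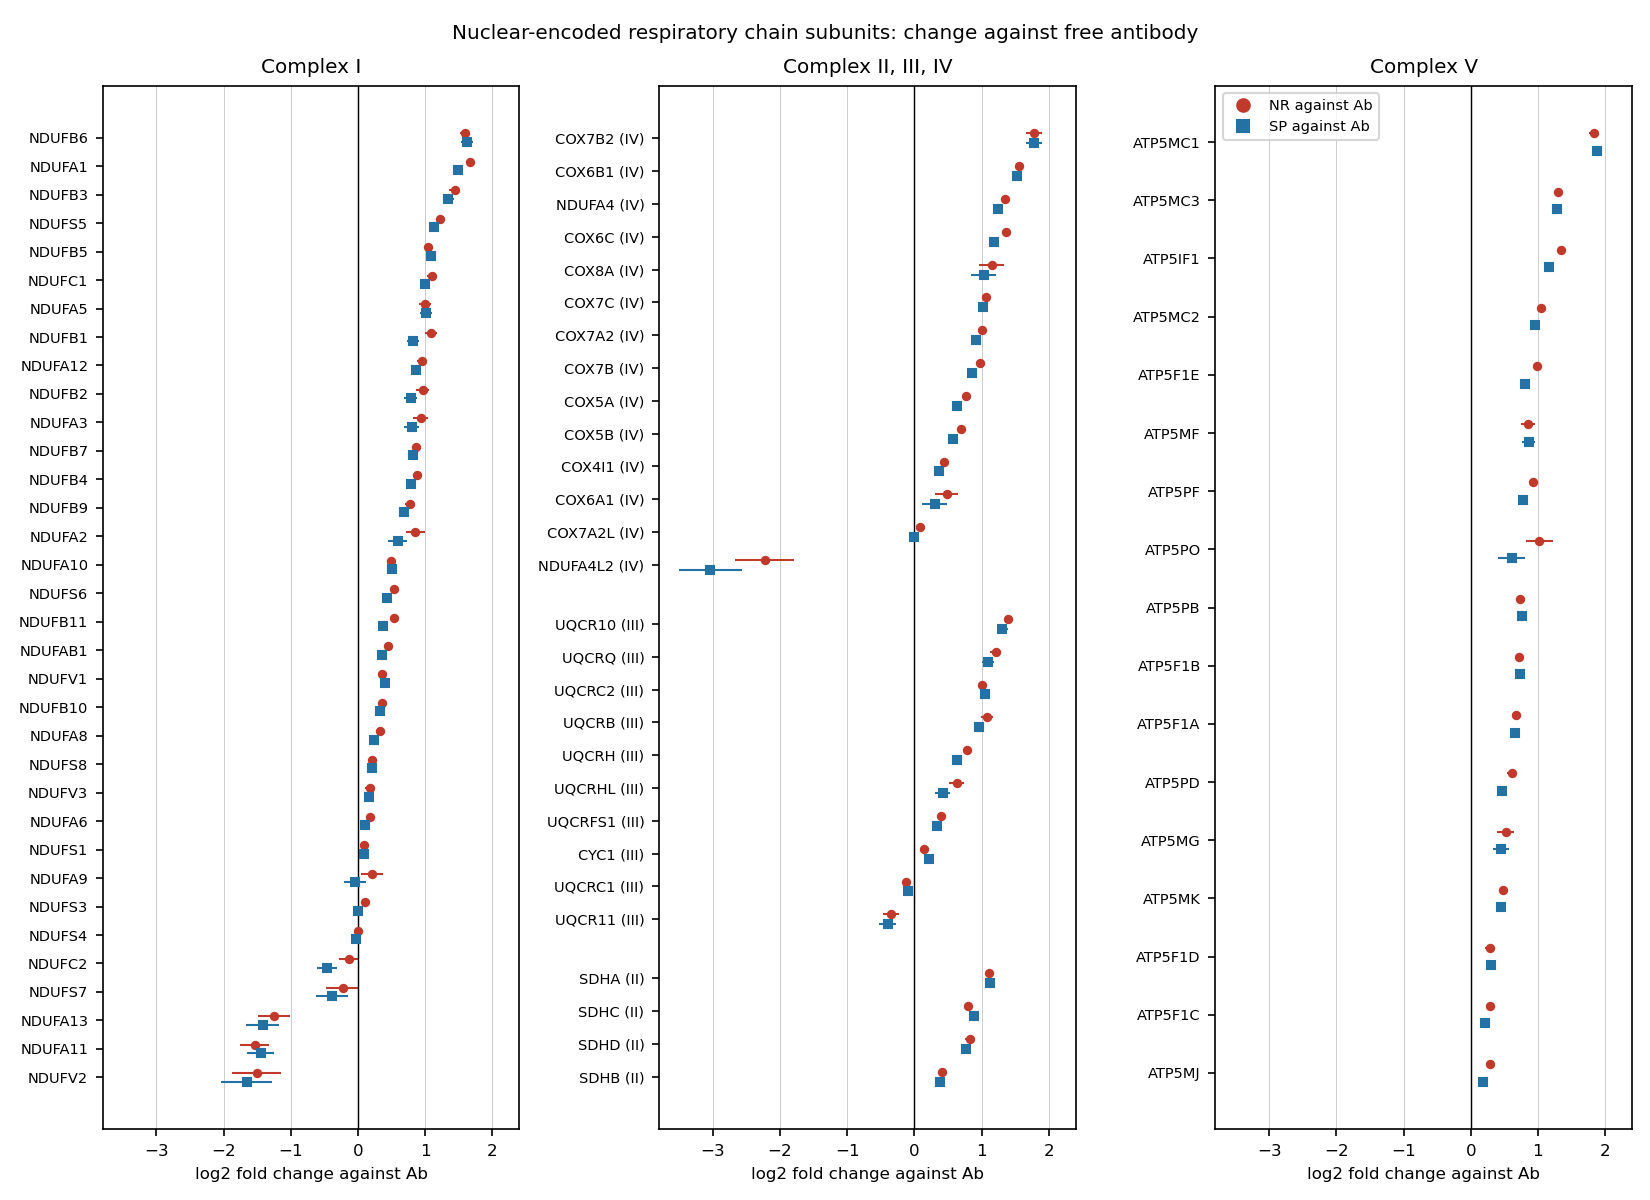
The log2 fold change against Ab of 79 of the 80 tested subunits, by complex, for NR (circles) and SP (squares), with bars of 1 standard error from the fit and 3 libraries per group. Members lie mostly to the right of 0, those of complexes II and V entirely so, and NDUFA4L2, NDUFV2, NDUFA11 and NDUFA13 lie farthest to the left. The particle libraries held at most 6 counts of NDUFA4L2.

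All 5 complexes had medians above 0 in both comparisons, of different size. Their counts stand beside 36.4% of all genes up in either comparison, and 36.4% down in NR and 36.6% in SP. For complex II the median on the log2 scale was 0.81 in NR and 0.82 in SP, with 4 of 4 members up. Complex V stood at 0.73 in both, with 17 of 17 tested members up. Complex IV stood at 0.99 in NR and 0.88 in SP, with 12 and 11 of 14 tested members up and 1 down. Complex III stood at 0.70 and 0.53, with 8 of 10 up and 2 down in either group. Complex I stood at 0.53 and 0.43, with 26 up and 3 down of 35 in NR and 25 up and 4 down in SP. The order of the complexes depended on the members counted: without those that have at least 30% of their coding bases in exons of another counted gene, complex I was at 0.81 in NR and 0.64 in SP, beside 0.78 and 0.63 for complex III. Without members that share any exon base or have a named pseudogene, complex V was at 0.29 and 0.24 and complex III at 0.15 and 0.21. The differences between the complexes were not tested, since their members were not replicates of anything.

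**Figure D2:**
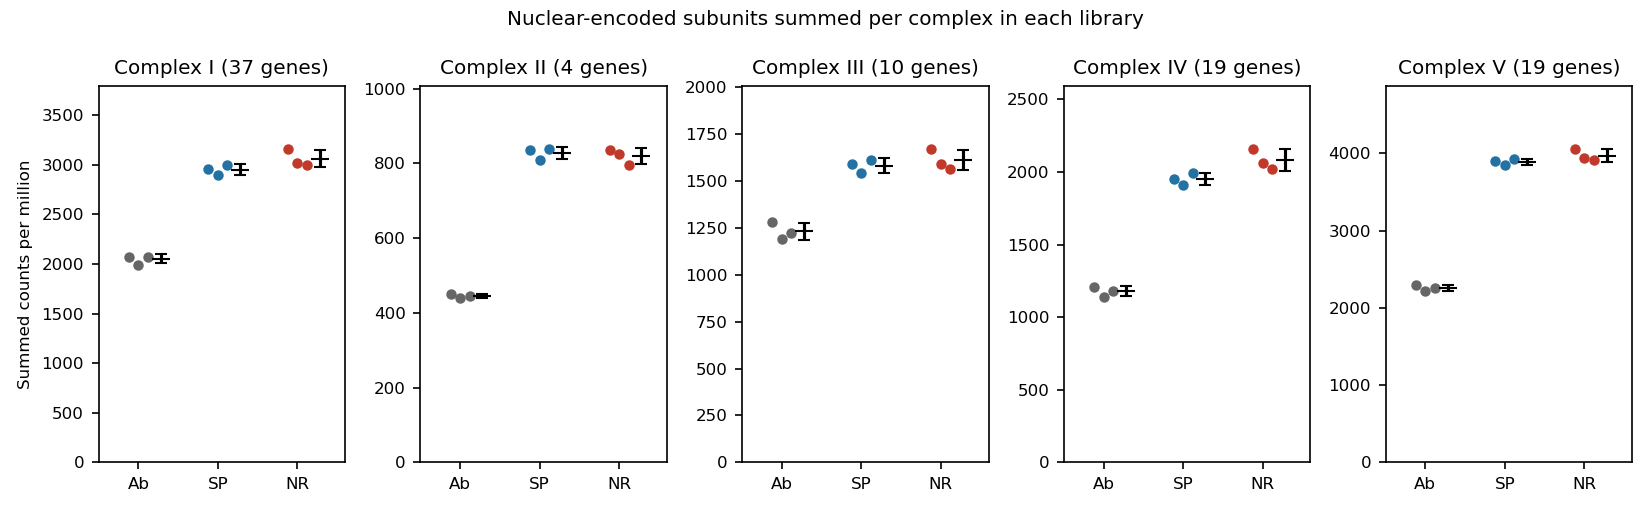
Summed CPM of the nuclear-encoded subunits of each complex in each library (points), with the mean and SD of the 3 libraries of a group beside them. In each of the 5 complexes, the NR and SP libraries lie above the Ab libraries, and NR and SP lie close to each other.

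The summed levels gave ratios of NR to Ab of 1.5 for complex I, 1.84 for complex II, 1.3 for complex III, 1.77 for complex IV and 1.76 for complex V. Complex II, for example, was at 451, 441 and 445 CPM in Ab and at 835, 826 and 796 CPM in NR. Such sums weigh abundant genes most. ATP5F1B, the catalytic β subunit of ATP synthase, alone gave 905 ± 26.5 CPM (SD, n = 3) in Ab and 1520 ± 6.51 in NR. Per length of its canonical transcript it was the highest member in Ab, at an RPKM of 514 (CPM per kilobase of transcript), ahead of COX4I1 (428), UQCRH (377) and UQCRC1 (321); with the union of all annotated exons as the length it stayed first at 404, while COX4I1 ranked 11.

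Within complex I, the subunits of the membrane arm, which carries the proton pumps, had higher medians than the N and Q modules. Of 19 tested membrane-arm subunits, 16 rose and 2 fell in NR at a median of 0.87 on the log2 scale, and 16 rose and 3 fell in SP with 0.78. The N module, where NADH is oxidised, had 5 up and 1 down of 8 in both groups, with medians of 0.27 and 0.28. The Q module, where ubiquinone is reduced, had 5 of 8 up in NR (median 0.21) and 4 of 8 in SP (0.16). Of all genes tested, 36.4% rose in either comparison, and 36.4% fell in NR and 36.6% in SP. The count of the Q module in SP was not far from the share that rose. The modules were compared by these medians and counts alone and not tested against each other.

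NDUFA1, a small subunit anchored in the membrane arm, was at 28.8, 27.2 and 25.1 CPM in Ab, at 72.9, 81.2 and 77.1 CPM in SP and at 89.2, 91.6 and 81.6 CPM in NR. The 3 groups did not overlap. Its rise against Ab was 3.17-fold in NR (log2 1.67 ± 0.07 SE, adjusted p = 5.82e-19, edgeR) and 2.8-fold in SP (log2 1.49 ± 0.07, adjusted p = 2.96e-17, edgeR). NDUFB6, another accessory subunit of the membrane arm and the gene of the first sequence above, was at 10.4, 10.2 and 11.9 CPM in Ab and between 32.5 and 35.1 CPM in all 6 particle libraries, a rise of 3.02-fold in NR and 3.07-fold in SP. NDUFB3, NDUFB5 and NDUFS5, also of the membrane arm, passed 2-fold in both groups as well. NDUFB1 and NDUFC1 did so in NR alone and NDUFA5, a Q module subunit, in SP alone, with values near the limit in the other group (1.77-fold, 1.98-fold and 2-fold).

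Several subunits of the catalytic core of complex I moved less. NDUFV1, which holds the NADH site, rose 1.28-fold in NR and 1.32-fold in SP, and NDUFS8, an iron-sulfur subunit, 1.15-fold and 1.16-fold. NDUFS1, the largest subunit of the N module, was at 300, 318 and 319 CPM in Ab, 341, 341 and 333 CPM in SP and 332, 338 and 344 CPM in NR. Both particle groups lay above Ab and overlapped each other, yet it did not pass the test (log2 fold change 0.086 and 0.088, adjusted p = 0.0736 and 0.0723, edgeR). NDUFS3 (0.10 and −0.00038, adjusted p = 0.0544 and 0.994, edgeR) did not pass either. The same held for NDUFS4 (0.0019 and −0.033), an accessory subunit of the N module and not one of the core.

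NDUFA11 (GRCh37 chr19:5891287-5904017) and NDUFA13 (chr19:19626545-19639863), both of the membrane arm, and NDUFV2 (chr18:9102628-9134343), an iron-sulfur subunit of the N module, fell by at least 2-fold in both groups. NDUFA11 had 106, 120 and 102 counts in Ab, 54, 32 and 33 in SP and 58, 14 and 26 in NR. Its log2 fold change was −1.54 ± 0.21 in NR and −1.45 ± 0.20 in SP. NDUFV2 had 22, 28 and 21 counts in Ab against 5 to 11 in the particle libraries (log2 −1.51 ± 0.37 and −1.66 ± 0.38), and NDUFA13 had 64, 75 and 56 counts against 15 to 33 (log2 −1.25 ± 0.24 and −1.42 ± 0.25).

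These counts were low, and the gene models of all 3 genes overlap other genes. A read lying in exons of more than 1 gene is commonly counted for neither, and 84.7% of the coding bases of NDUFV2, 55.2% of NDUFA13 and 37.2% of NDUFA11 lay in exons of another gene of the count files. The pseudogene named after NDUFV2 held 369% of the counts of NDUFV2 itself. Of the 89 subunit genes, 18 had at least 30% of their coding bases in exons of another counted gene, and their median level was 4.17 CPM, beside 90.4 CPM for the other 71. NDUFA7 (78.3% overlap, at most 12 counts in a library), NDUFB8 (85.2%, at most 16) and ATP5ME (44%, at most 20) had too few counts to be tested against Ab, as did ATP5MGL, a member at no more than 0.358 CPM, and both read-through genes. Of the 6 members that fell in both groups, 4 (NDUFV2, NDUFA11, NDUFA13 and UQCR11) were among the 14 tested members with such overlap. Among the 66 tested members under 30% overlap, 60 rose and 2 fell in NR and 59 rose and 2 fell in SP. Of all genes tested, 36.4% rose in either comparison, while 36.4% fell in NR and 36.6% in SP. The part of overlap in the direction of the 4 genes was not tested.

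**Figure D3:**
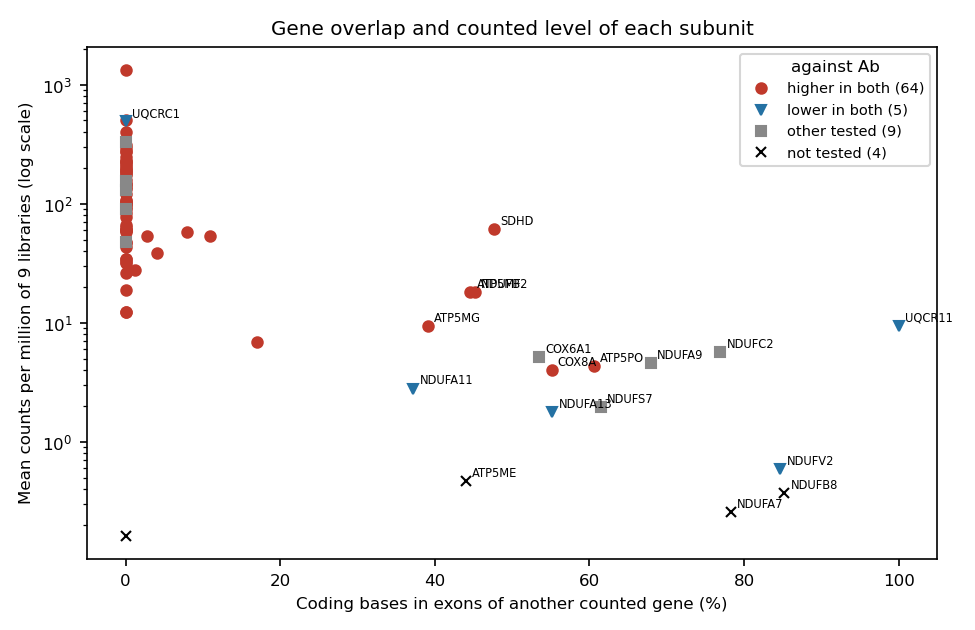
Share of coding bases in exons of another counted gene (x axis, percent) and mean CPM over the 9 libraries (y axis, log scale) of each subunit, tissue isoforms and genes without a count left out, with the call against Ab as the symbol. Members with at least 30% overlap lie at or under 61.3 CPM, and 4 of the 5 members marked as lower in both groups are among them, UQCRC1 being the other.

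Complex II links the citric acid cycle to the chain. SDHA, its flavoprotein and the gene whose upstream bases held TGCGCA 3 times, was at 178, 170 and 169 CPM in Ab, at 386, 377 and 381 CPM in SP and at 385, 384 and 373 CPM in NR. The particle libraries all lay above 2 times any Ab library, with a rise of 2.16-fold in NR (log2 1.11 ± 0.04, adjusted p = 5.07e-19, edgeR) and 2.17-fold in SP. Pseudogenes named after SDHA held 8.76% of the counts of SDHA. SDHB, the iron-sulfur subunit, rose less (1.32-fold and 1.3-fold). The membrane anchors SDHC (1.74-fold and 1.84-fold) and SDHD (1.76-fold and 1.71-fold) lay between them.

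In complex III the 2 core proteins went different ways. UQCRC2 was at 106, 108 and 111 CPM in Ab and between 209 and 237 CPM in the particle libraries, a rise of 2.01-fold in NR and 2.07-fold in SP. UQCRC1 was at 538, 499 and 497 CPM in Ab, 490, 476 and 493 CPM in SP and 489, 469 and 477 CPM in NR. Its particle libraries lay just under the Ab libraries (log2 −0.12 ± 0.04, adjusted p = 0.0112 in NR, and −0.10 ± 0.04, adjusted p = 0.046 in SP, edgeR), and the call in SP was lost without SP replicate 2 (adjusted p = 0.115), SP replicate 3 (0.077) or Ab replicate 1 (0.0942).

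The redox subunits rose little. CYC1, which carries cytochrome c1, rose 1.11-fold in NR and 1.16-fold in SP, and UQCRFS1, the Rieske iron-sulfur protein, 1.32-fold and 1.26-fold. Among the small subunits, UQCR10 was at 15.9, 15.7 and 14.8 CPM in Ab, 40.8, 36.6 and 39.8 CPM in SP and 43.5, 40.6 and 40.1 CPM in NR (2.63-fold in NR and 2.48-fold in SP). UQCRQ rose 2.32-fold and 2.14-fold, and UQCRB 2.12-fold and 1.95-fold. UQCR11 was the small subunit that fell (log2 −0.35 ± 0.12 and −0.40 ± 0.12), and all of its coding bases lay in exons of another counted gene.

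All 11 ubiquitous subunits of complex IV rose in NR (median log2 value 1.01), and 10 of 11 rose in SP, with 0.91, beside 36.4% of all genes in either comparison. COX6B1, which faces the intermembrane space, was at 35.8, 36.5 and 35.5 CPM in Ab, 102, 104 and 108 CPM in SP and 108, 111 and 105 CPM in NR. The particle libraries overlapped each other and lay far above Ab, with a rise of 2.95-fold in NR (log2 1.56 ± 0.06, adjusted p = 6.21e-20, edgeR) and 2.86-fold in SP. NDUFA4, which was named as a complex I protein and is now placed in complex IV, went from 123, 121 and 124 CPM in Ab to between 290 and 335 CPM (2.55-fold and 2.38-fold). COX6C, COX7C and COX8A also passed 2-fold in both groups, and COX7A2 in NR alone. COX8A was counted at only 1.92 to 6.19 CPM and had 55.1% coding overlap. COX4I1 rose 1.36-fold and 1.29-fold, from 334, 318 and 328 CPM. COX6A1 was counted at only 3.07 to 6.62 CPM, with 53.5% coding overlap and pseudogene counts of 131% of its own. It rose in NR (1.4-fold, adjusted p = 0.0129, edgeR), but not without NR replicate 3 (adjusted p = 0.075) or Ab replicate 1 (0.0879).

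Most tissue isoforms of complex IV had few or no counts. COX4I2, COX6A2 and COX8C had 0 counts in all 9 libraries, which allows up to 0.114 to 0.216 CPM in a library (3 counts of the unadjusted library total, for counting error only), and COX7A1 had at most 3 counts. COX6B2 was at no more than 0.368 CPM and was not tested. All of its coding bases lay in exons of another counted gene, so its level is uncertain. COX7B2, an isoform known from testis, was the exception. It was at 3.94, 4.64 and 5.16 CPM in Ab and between 15.4 and 17 CPM in the particle libraries, a rise of 3.44-fold in both groups (log2 1.78 ± 0.12), while its ubiquitous relative COX7B went from 122, 127 and 134 CPM to between 225 and 278 CPM. Per length, COX7B2 had an RPKM of 8.24 in Ab and 29 in NR, on the canonical transcript.

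NDUFA4L2, a hypoxia-inducible relative of NDUFA4, moved the other way. It had 69 counts in the 3 Ab libraries together, 12 in NR and 8 in SP, or 1.02, 1.06 and 1 CPM in Ab and at most 0.375 CPM in the others. From the summed counts it was 4.77 times lower in NR (95% exact interval 2.56 to 9.68, for counting error only) and 8.4 times lower in SP (4.04 to 20.2). COX7A2L, which joins complexes III and IV into supercomplexes, did not pass (log2 0.083 in NR and −0.0018 in SP, at 145 to 166 CPM throughout).

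**Figure D4:**
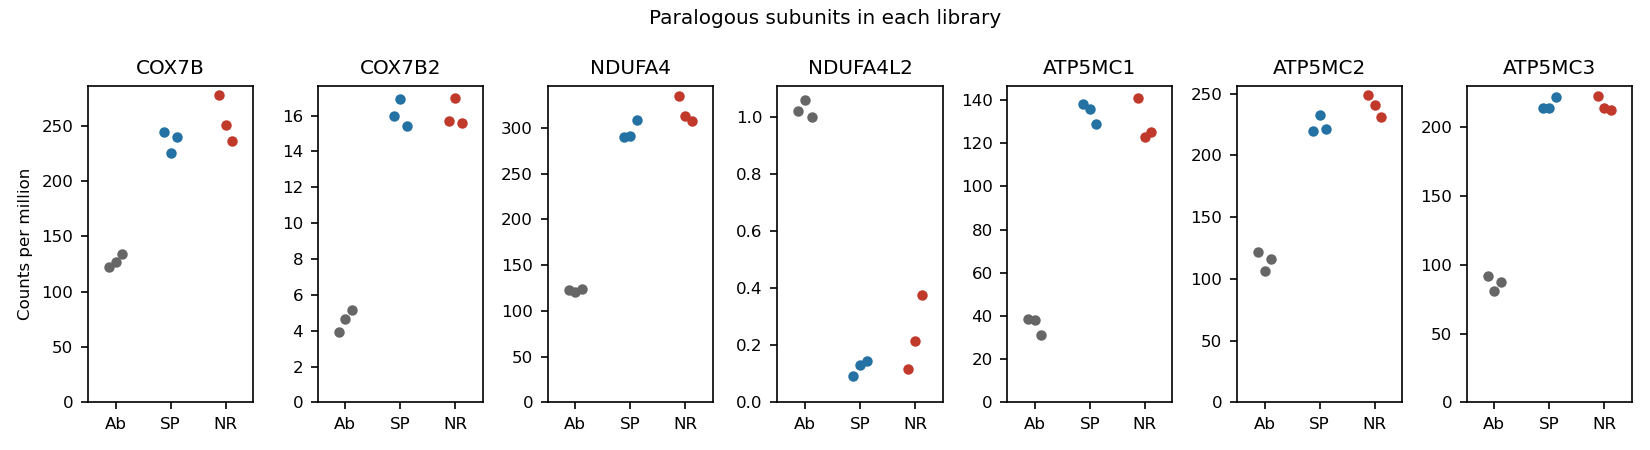
CPM in each library of subunits that have close relatives, with each gene on its own axis from 0. COX7B and COX7B2 are both higher in NR and SP than in Ab, NDUFA4 and NDUFA4L2 lie in opposite directions, and ATP5MC1 to ATP5MC3, which encode the same ring subunit, are all higher.

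In complex V, ATP5MC1, ATP5MC2 and ATP5MC3 encode the same mature c subunit of the proton-driven ring with different import signals. ATP5MC1, shown above with its 3 CCAAT boxes, was at 38.4, 38.1 and 31.3 CPM in Ab, 138, 136 and 129 CPM in SP and 141, 123 and 125 CPM in NR. It rose 3.55-fold in NR (log2 1.83 ± 0.07, adjusted p = 5.31e-14, edgeR) and 3.68-fold in SP (log2 1.88 ± 0.07), the largest fitted rise of any member in either comparison. ATP5MC3 rose 2.46-fold and 2.45-fold, from 91.6, 80.9 and 87.8 CPM, and ATP5MC2 2.06-fold and 1.93-fold, from 122, 106 and 116 CPM.

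ATP5IF1, the protein that inhibits ATP hydrolysis by the synthase, rose along with the subunits. It was at 81.8, 71 and 72.4 CPM in Ab, 168, 171 and 177 CPM in SP and 211, 183 and 184 CPM in NR, with no overlap between the groups (2.53-fold in NR and 2.25-fold in SP). The 5 subunits of the catalytic F1 head had medians of 0.68 and 0.66, with ATP5F1E at 1.97-fold in NR and 1.75-fold in SP, ATP5F1A at 1.6-fold and 1.58-fold, ATP5F1B at 1.65-fold and 1.66-fold, and ATP5F1C and ATP5F1D at no more than 1.23-fold. The 4 peripheral stalk subunits had medians of 0.83 and 0.69. ATP5PO, one of them, passed 2-fold in NR alone, at 2.2 to 7.08 CPM and with 60.6% coding overlap, and its call in SP was lost without Ab replicate 3 (adjusted p = 0.0505, edgeR).

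Among the results against Ab, 65 of the 67 rises in NR and 62 of the 65 in SP held with each of the 6 libraries left out in turn, as did 6 of 6 falls in NR and 6 of 7 in SP. Those lost besides UQCRC1 were NDUFV3 (both groups), COX6A1 (NR), ATP5MJ and ATP5PO (SP). The size of the rise depended on which members were counted: for the 14 tested members that share no exon base with another gene and have no named pseudogene, the log2 median was 0.29 in NR (11 up, 1 down) and 0.25 in SP (10 up, 1 down).

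The direct comparison of NR with SP set rods beside spheres at the same dose of antibody. By the paper's account the 2 particles also differed in size, supplier and measured surface charge. These cannot be told apart from shape here. Of 79 members tested, 0 passed the adjusted p in either direction (edgeR), where 0.262% of 14903 genes were higher in NR and 0.181% lower. At an unadjusted p under 0.05 there were 25 members, all higher in NR, which is 31.6% beside 6.23% of all genes (6.67% of all genes were lower at that p). The log2 fold change was above 0 for 61 of the 79, or 77.2%, beside 49.9% of all genes, with a median of 0.088 (1.06-fold) beside −0.00046. With NR replicate 1 left out, 12 members were higher and 1 lower at an unadjusted p under 0.05 (15.2% beside 5.41% of all genes higher), and the median was 0.051; without SP replicate 2 there were 13 higher (16.2% beside 5.62% of all genes) and a median of 0.059. With length and GC trends removed there were 17 higher and 2 lower (21.5% beside 6.82% of all genes higher), and the median was 0.054.

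By complex, the medians of NR against SP were 0.09 for complex I, 0.012 for II, 0.082 for III, 0.11 for IV and 0.075 for V. All 11 ubiquitous subunits of complex IV had a value above 0, from 0.041 to 0.18, and 7 of them an unadjusted p under 0.05. Of all genes tested, 49.9% had a value above 0 and 6.23% were higher in NR at that p. Neither of the core proteins of complex III and neither catalytic subunit of complex II reached an unadjusted p under 0.05 (UQCRC1 −0.021, UQCRC2 −0.039, SDHA −0.0024 and SDHB 0.027).

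DESeq2 put 4 members past the adjusted p in NR against SP, and edgeR without a filter on low counts put 5, all of them higher in NR. Of all genes, 1.5% of the 4734 that DESeq2 gave an adjusted p and 0.568% of the 30650 tested without the filter were called higher. They were NDUFB11, UQCRH, ATP5F1E and ATP5IF1, with NDUFA1 as the fifth without the filter, and are named here because of these values. NDUFB11, a membrane-arm subunit of complex I, was at 219, 216 and 242 CPM in SP and 269, 239 and 251 CPM in NR, so the groups overlapped (log2 0.17 ± 0.05, adjusted p = 0.0962 with edgeR, 0.0471 with DESeq2, and 0.011 to 0.311 over the settings tried). ATP5F1E, the ε subunit of the F1 head, was at 249, 261 and 258 CPM in SP and 320, 276 and 267 CPM in NR (log2 0.18 ± 0.05, adjusted p = 0.129 with edgeR, 0.0466 with DESeq2). The NR libraries lay above the SP libraries in ATP5F1E, with NR replicate 1 the highest. UQCRH, the hinge protein of complex III, had a log2 fold change of 0.15 ± 0.04 (adjusted p = 0.0962 with edgeR, 0.0467 with DESeq2), and ATP5IF1 and NDUFA1, given above, 0.17 ± 0.05 and 0.18 ± 0.05 (adjusted p = 0.087 and 0.103 with edgeR).

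**Figure D5:**
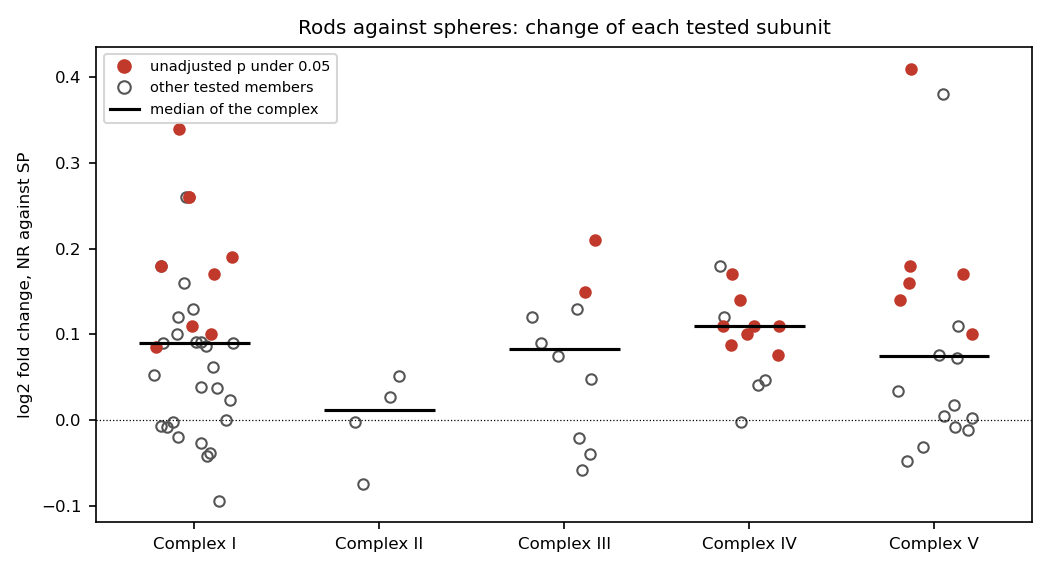
The log2 fold change of NR against SP for each of the 79 tested members, by complex, with filled points for an unadjusted p under 0.05 and lines at the median of each complex. The filled points all lie above 0, and 61 of the 79 points do, while none passed the adjusted p.

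The mitochondrial genome encodes the remaining 13 subunits, from both of its strands. Of these, 8 rose in NR and 9 in SP and 0 fell (beside 36.4% of all genes tested up in either comparison), with medians of 0.46 and 0.49, below those of the nuclear members (MT-ND2 at −0.031 and MT-ND1 at 0.044 in NR were among those that did not pass). MT-ND6 was at 188, 170 and 174 CPM in Ab, 446, 424 and 393 CPM in SP and 442, 394 and 393 CPM in NR (log2 1.18 ± 0.05 and 1.22 ± 0.05). MT-ND5 had log2 fold changes of 1.03 and 1.11. Since the strand of the counting is not stated, reads of MT-ND6 and of transcripts from the opposite strand cannot be told apart. MT-CO1 was at 10900, 9570 and 10300 CPM in Ab, 11700, 11100 and 11200 CPM in SP and 11000, 10800 and 10900 CPM in NR. Its log2 fold change was 0.065 in NR, which did not pass, and 0.12 in SP, which did (adjusted p = 0.147 and 0.0252, edgeR), and NR and SP did not differ past the threshold (adjusted p = 0.592, edgeR). Of the 13, MT-ND3 passed between NR and SP, at 453, 456 and 475 CPM in SP and 565, 505 and 497 CPM in NR (log2 0.18 ± 0.04, adjusted p = 0.0413, edgeR), with the groups apart. In sums, the ratio of NR to Ab was 1.4 for the mitochondrial subunits of complex I (nuclear 1.5), 1.34 for III (nuclear 1.3), 1.17 for IV (nuclear 1.77) and 1.4 for V (nuclear 1.76), with the wider gaps in complexes IV and V. The ratio of SP to Ab was 1.47 for the mitochondrial subunits of complex I (nuclear 1.44), 1.29 for III (nuclear 1.28), 1.18 for IV (nuclear 1.66) and 1.43 for V (nuclear 1.72). The share of counts on the mitochondrial genome was 4.36% to 4.66% in the particle libraries and 3.41% to 3.71% in Ab.

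For the genes that build the complexes, the counts stand beside 36.4% of all genes up in either comparison, and 36.4% down in NR and 36.6% in SP. Of 17 assembly factors of complex I, 11 rose and 3 fell in NR, and 9 rose and 3 fell in SP. DMAC1, needed for the distal membrane arm (log2 1.54 ± 0.08 in NR and 1.52 ± 0.09 in SP), and NDUFAF3 (1.37 ± 0.08 and 1.5 ± 0.08) had the smallest p-values among them. For complexes II and III, the counts were near those shares, as 4 of 10 factors rose and 2 fell in NR (4 and 3 in SP), among them SDHAF4 (1.10 and 1.21) and LYRM7 (0.60 and 0.64), which helps to insert the Rieske protein. For complex IV, 14 of 24 rose and 7 fell in NR, and 13 and 6 in SP. COX19, a copper-handling factor, was at 104, 94.9 and 102 CPM in Ab and between 27.3 and 33.6 CPM in the particle libraries (log2 −1.64 ± 0.06 and −1.82 ± 0.06), with 38.9% of its coding bases in exons of another counted gene. COA7 fell too (−0.52 and −0.56) and COA3 rose (0.73 and 0.87). Of 4 tested ATP synthase factors, 2 rose and 2 fell in either group, such as ATPAF1 (0.32 and 0.35) and TMEM242 (−0.60 and −0.52).

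Cytochrome c and the genes of coenzyme Q synthesis, which supply the mobile carriers between the complexes, showed 8 up and 3 down of 15 in NR and 7 and 4 in SP, beside 36.4% of all genes up in both and 36.4% and 36.6% down. COQ3 (1.11 and 1.13), COQ8B (0.96 and 1.14) and COQ2 (0.96 and 0.80) rose, and COQ4 fell (−0.69 and −0.64). The citric acid cycle and pyruvate genes, which feed the chain, rose in 15 of 19 and fell in 1 of 19 in either group, with medians of 0.61 and 0.56. IDH2, the mitochondrial NADP-dependent isocitrate dehydrogenase, was at 17, 14.9 and 16.3 CPM in Ab and between 92.9 and 99.7 CPM in the particle libraries (log2 2.55 ± 0.07 in both). PC, pyruvate carboxylase, rose by log2 1.79 in both. Of 6 tested carriers for ADP, ATP and phosphate and channels of the outer membrane, 5 rose in either group, with SLC25A5, the ADP/ATP carrier, at 126, 127 and 126 CPM in Ab and 379 to 416 CPM in the others (log2 1.65 ± 0.04 and 1.61 ± 0.05), and VDAC1 at log2 0.72 and 0.74.

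Of 12 regulators of respiratory genes, 2 rose and 9 fell in both groups (beside 36.4% of all genes up in both, and 36.4% and 36.6% down), with medians of −0.32 and −0.31. NRF1, whose core motif lay farthest above its share of all promoters, was at 47.4, 41.3 and 43.9 CPM in Ab, 21.4, 23 and 23 CPM in SP and 24.6, 23.7 and 23.9 CPM in NR. Its transcript level fell by 0.90 ± 0.07 on the log2 scale in NR and passed the test in SP as well (adjusted p = 1.04e-12, edgeR). GABPB1, the activating subunit of GABP, fell from 98.8, 113 and 111 CPM to between 46.1 and 49.4 CPM (log2 −1.19 ± 0.06 and −1.20 ± 0.06). GABPA, its DNA-binding partner (−0.27 and −0.19), YY1 (−0.51 and −0.57) and POLRMT, the mitochondrial RNA polymerase (−0.53 and −0.55), fell as well, and TFAM, which packs mitochondrial DNA, fell by little (−0.13 in both). The coactivator PPARGC1B rose (0.99 and 1.06), as did TFB1M (0.46 and 0.58), and PPARGC1A did not pass (0.15 in both, adjusted p = 0.0873 and 0.105, edgeR). These are transcript levels, and the amount or activity of the proteins was not measured here.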

How the data were processed

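The deposited values are whole counts of reads per gene, not scaled between libraries. The authors aligned poly-A reads with HISAT2 (version 2.1.0); hg19 is named in the study's reporting summary and mm9 in the submitters' processing notes. The counter is named in different ways, and the annotation release and strand setting are not given in the sources used here. Names and positions came from GENCODE release 44 on GRCh37, which held 59859 of the 60880 IDs; the others took at most 0.115% of a library.

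The test was the robust quasi-likelihood one of edgeR (version 4.0.16, R 4.3.3) on the 6 libraries of a pair of groups, after TMM scaling and filterByExpr (minimum count 10, minimum total 15). The p-values were adjusted over every gene tested by the method of Benjamini and Hochberg. Fold changes are edgeR estimates. CPM were counts over library sizes adjusted by TMM across all 9 libraries. Alternatives used DESeq2 1.42.0, other filters, scalings and sets of members, and trends with gene length and GC content removed by local regression. The steps were tested on counts drawn with 200 genes changed by a log2 fold of 1. Of these, 81.5% were recovered in NR against Ab, 86% in SP against Ab and 90.5% in NR against SP. False calls made up 6.32%, 4.44% and 9.05% of the calls, in the same order. Against Ab, far more genes were called in the data, 36.4% higher in either comparison and 36.4% (NR) or 36.6% (SP) lower. The drawn counts did not cover such a case, so these rates do not describe the scaling or the calls against Ab. Libraries of a group differed by more than sampling noise (chi-square per gene 1.84 to 7.43).

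Members, lists and markers were chosen with earlier results of these data known. Named genes were members past 2-fold and the adjusted p; in each complex the 2 with the largest rise and fall among those with a mean of at least 100 counts; core subunits; isoform families with ATP5IF1; and in each pathway list the 2 with the smallest p. Others were chosen after their values were seen. A member and a marker are not reported here by name. Columns of per-sample values left out numbered 0. Promoter sequences are from RefSeq on GRCh38.p14.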

Additional observations from a re-analysis of the deposited data

How the results depend on the processing

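The medians against Ab of the tested members and of complexes I to V stayed above 0 under the alternatives that could be run, while COX7A2L, NDUFS1 and NDUFS3, which did not pass the test, changed sign under some. The counts and medians that moved are given here, and the causes were not tested. With a 2-fold minimum, members higher than Ab numbered 24 in NR (7 in complex I, 1 in II, 4 in III, 7 in IV and 5 in V, with 0 lower in III) and 19 in SP (6, 1, 3, 6 and 3, with 4 members lower and 0 in III). Without members that share exon bases or have pseudogenes, fewer members were counted, 11 higher and 1 lower in NR with a median of 0.29 (complex I 6 higher and 0 lower, III 2 and 1 with a median of 0.15, IV 1 and 0 with 0.93, V 2 with 0.29) and 10 higher and 1 lower in SP with 0.25 (complex I 5 and 0, III 2 and 1 with 0.21, IV 1 and 0, V 2 with 0.24). Without members that have at least 30% of coding bases shared, an alternative chosen after seeing the data, 2 members were lower in either group (complex I 0, III 1), and the medians were 0.81 for complex I in NR and, in SP, 0.74 for the members, 0.64 for complex I and 0.88 for complex II. With length and GC trends removed, the medians were 0.67 in NR (complex I 0.41, II 0.73, III 0.58) and 0.55 in SP (I 0.36, II 0.77, V 0.63), and with a replicate block as well 0.69 (I 0.42, II 0.74) and 0.56 (II 0.78, V 0.65). Members are short: their canonical transcripts had a median of 763 bases, beside 2894 for all genes tested.

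With no filter beyond 1 count, the median in NR was 0.72 (complex IV 0.86), and with DESeq2 complex IV was at 0.88. With at least 10 counts in each library, or with NDUFA4 and NDUFA4L2 counted in complex I, 0 members of complex IV were lower in either group. In SP, 1 member of complex III was lower with DESeq2, RLE size factors or no filter. In NR against SP, DESeq2 put 4 members past the threshold (1 in complex I, 1 in III and 2 in V) and no filter 5 (2, 1 and 2), where these fits called 144 and 328 genes in all, beside 66 in the comparison as reported. The fit with length and GC trends removed put the median of NR against SP at 0.054 (0.053 with the replicate block) in place of 0.088, with 17 members higher and 2 lower at an unadjusted p under 0.05 (15 and 2 with the block) in place of 25 and 0. Without members that share exon bases or have pseudogenes, the medians of NR against SP were 0.031 for all, 0.043 for complex IV and −0.021 for III, and without those of at least 30% coding overlap complex II was at −0.0024.

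Leaving out 1 library at a time gave medians of 0.72 to 0.81 in NR (complex V 0.72 to 0.81) and 0.64 to 0.71 in SP, 1 to 2 members of complex III lower in SP, and in NR against SP a complex II median of −0.017 to 0.041 and 0 to 2 members higher (0 to 1 in complex I and 0 to 1 in III), the 2 without SP replicate 3. COX7A2L in SP turned to 0.0071 with DESeq2, 0.00099 with RLE size factors and 0.0053 with no filter (−0.027 to 0.023 with 1 library left out), and NDUFS3 in SP to 0.0084, 0.0025 and 0.0067, to 0.00062 without mitochondrial genes and −0.015 to 0.015 with 1 library left out. NDUFS3 in NR was at −0.00069 with the replicate block and trends removed, and NDUFS1 in SP at −0.03 with trends removed, with or without the block. Calls changed for COX6A1 in NR (adjusted p = 0.0601 with DESeq2) and in SP (0.0289 with the replicate block and trends removed, edgeR), NDUFS3 in NR (0.0476 with RLE, edgeR) and in SP, where it passed as lower with trends removed (log2 −0.10, adjusted p = 0.0251, and 0.0294 with the block, edgeR), and UQCRC1 in SP (0.056 with RLE and 0.0942 with no filter, edgeR; 0.0878 with DESeq2). With 1 library left out, COX7A2L in NR passed without Ab replicate 1 (0.0152), and NDUFS3 in NR without NR replicate 3 (0.0278) or Ab replicate 1 (0.0134).

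The replicate numbers did not pair the libraries: deviations of same-numbered libraries correlated between −0.032 and 0.028. With the replicate block, 67 members were higher and 6 lower in NR (median 0.77), 65 and 7 in SP (0.65), and 0 in NR against SP (0.085). The median level of the members per length was an RPKM of 26.1 in NR, 25.3 in SP and 14.5 in Ab on the union of exons, 40.9, 36.7 and 24.1 on the longest transcript and 81.8, 77 and 44.1 on the canonical one, and 14.7 in Ab as a median over libraries. Depth limits the members under about 20 counts in a library, such as NDUFV2 and NDUFA4L2.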
